A study of Mus musculus with 4 samples.

Results

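The complement and coagulation genes described here are 43 genes chosen by symbol: complement components, their regulators and receptors, fibrinogen chains, clotting factors, anticoagulants and the genes of clot breakdown. Of these, 37 had a row among the 20555 genes of the deposited table, 18 of 19 complement genes and 19 of 24 coagulation genes. Masp2, Fga, F2, F11, F12 and Plg were not analysed here. RNA from bulk mouse mammary tumours was sequenced in 4 poly(A)-selected libraries. Control-PyMT (2 libraries) has the genotype PyMT, the polyoma middle T antigen, an oncoprotein that drives mammary tumours. MYC-PyMT (2 libraries) has the genotype S100a8-creRosa26-LSL-MYCPyMT, which joins PyMT to Cre driven by S100a8 (strongly expressed in neutrophils) and to MYC, placed at Rosa26 after a lox-flanked stop. All 4 tumours therefore carried PyMT. The labels used here do not give the promoter of PyMT, the age of the mice, whether the controls carried Cre or the MYC allele alone, or whether each library is a separate mouse. The p-values therefore reflect only how far these libraries spread, possibly for technical reasons.

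Complement is a cascade of plasma and local proteins. C1q with its proteases, or lectins with the MASP proteases, cleave C4 and C2, and factor B with properdin forms the alternative route. All routes cleave C3, release the attractants C3a and C5a, and can end in a membrane pore that begins with C5b, C6 and C7. Coagulation starts when tissue factor meets factor VII, runs through factor X and thrombin to fibrin, is held back by TFPI and the protein C system, and is reversed by plasmin. The liver makes most of the circulating proteins of both systems, while macrophages are a main source of C1q and epithelial and stromal cells hold tissue factor.

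Values are scaled counts, which are whole reads divided by a size factor of each library and not by gene length. Libraries held 31783846 to 34190913 reads. Library values are given in the order of replicates 1 and 2. Mouse Myc was 1832 and 2820 for Control-PyMT against 3215 and 2815 for MYC-PyMT, a log2 change of 0.40 that did not pass the test (limma adjusted p = 0.172). The labels do not name the species of the MYC transgene, so that row need not include its reads. S100a8 did not pass either (log2 0.70, limma adjusted p = 0.260), and S100a9 rose (log2 1.58, limma adjusted p = 0.00925). Epcam and Krt8, markers of mammary luminal epithelium, were between 19648 and 28747 scaled counts in all 4 libraries. In bulk tissue, fewer cells of a type and less RNA per cell cannot be told apart.

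A gene was tested if it reached 10 scaled counts in at least 2 libraries, and called if limma's Benjamini-Hochberg adjusted p over all 16725 genes tested was under 0.05. Of the 36 members tested, 5 rose and 11 fell in MYC-PyMT. The called share, 44.4%, lay near the 47.9% called among all genes, so the count itself is no result about these genes. Rises made up 13.9% of the members against 23.3% of all genes, and falls 30.6% against 24.6%. Called rises of at least 2-fold were 4 of 36, or 11.1% against 14.4% of all genes, and called falls of that size 8 of 36, or 22.2% against 18.3%. The groups did not overlap for 26 members, 72.2%, against 75.7% of all genes. The median log2 change was -0.03 over the 17 complement members tested, -0.35 over the 19 coagulation members and -0.02 over all genes. Among complement genes 3 rose and 4 fell, and among coagulation genes 2 rose and 7 fell.

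**Figure D1:**
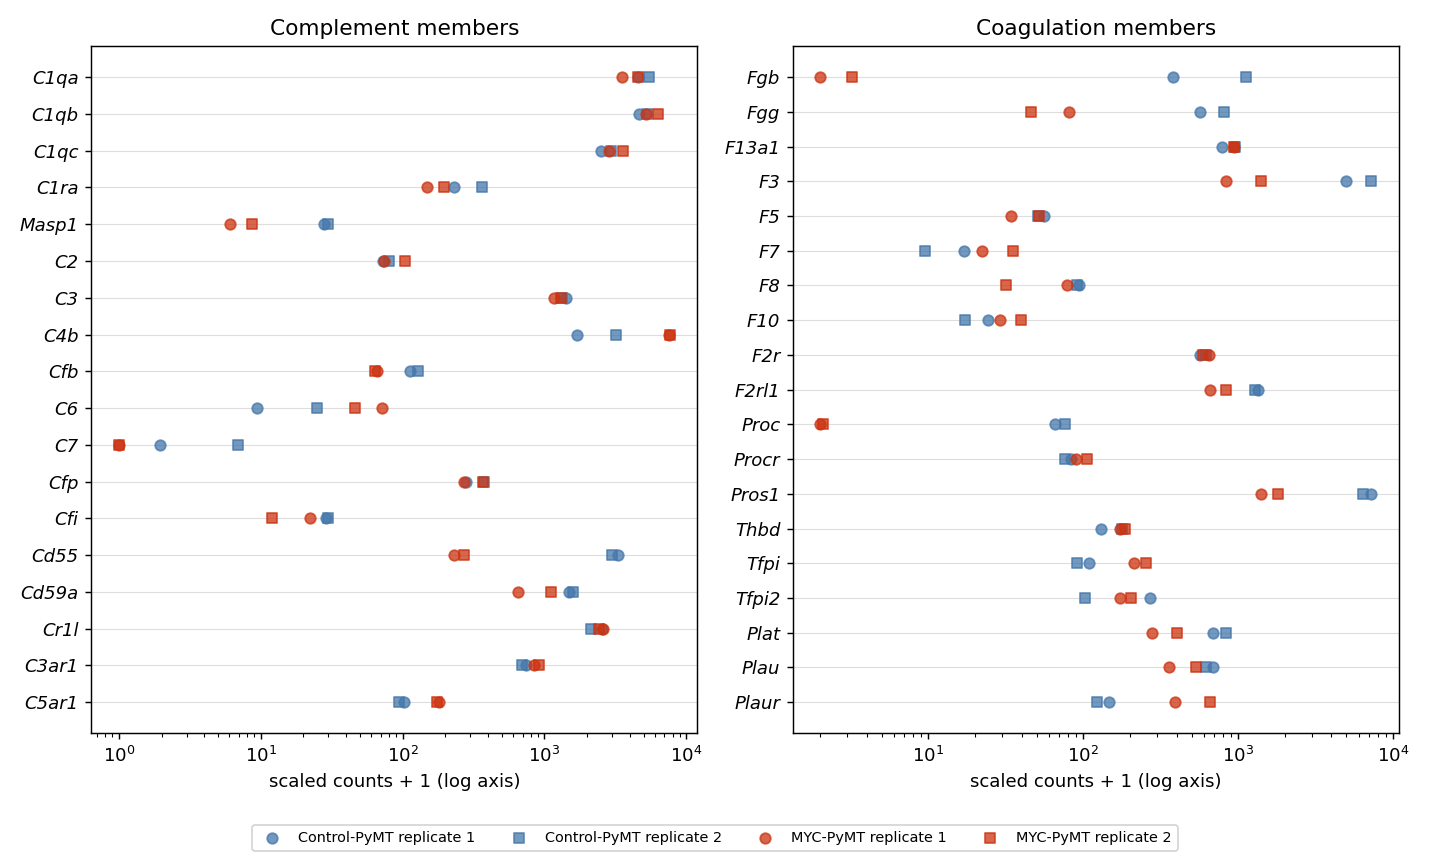
Scaled counts plus 1 (log axis) of the 37 measured members in each of the 4 libraries, circles for replicate 1 and squares for replicate 2. Fgb, Proc, Cd55, Fgg, F3 and Pros1 lie far lower in both MYC-PyMT libraries, while the C1q genes, C3, Cr1l and F2r lie close together.

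The 3 chains of C1q, the molecule that recognises antibody and dying cells and starts the classical pathway, did not pass the test. C1qb had 4670 and 5241 scaled counts in the controls against 5168 and 6306 in MYC-PyMT (log2 0.21, limma adjusted p = 0.397). C1qc had 2500 and 2961 against 2833 and 3568 (log2 0.22, limma adjusted p = 0.377). C1qa had 4582 and 5460 against 3489 and 4567 (log2 -0.33, limma adjusted p = 0.213), and with the trend along transcript length removed it passed as a fall (log2 -0.68, limma adjusted p = 0.0194), a setting under which C1qb turned to -0.13. The 3 genes are neighbours on chromosome 4 in the order C1qb, C1qc and C1qa, with gaps of 3616 and 2851 bases. Per kilobase of exon, the ratio of C1qa to C1qb, genes of 1040 and 1088 exonic bases, was 1.03 and 1.09 in the controls against 0.706 and 0.758 in MYC-PyMT, and the groups did not overlap. The ratio of C1qc to C1qb was 0.302 and 0.318 against 0.309 and 0.319. The pairs of genes used for ratios were chosen after their values were seen, and no ratio was tested. C1ra, the protease that C1q activates, stood at 228 and 362 in the controls against 147 and 195 in MYC-PyMT. It missed the threshold (log2 -0.76, limma adjusted p = 0.0651) and passed with the replicate number as a block (adjusted p = 0.0437) and with upper-quartile scaling (0.0449).

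Macrophages are a main source of C1q, and their markers did not move one way. Of 12 macrophage markers 4 rose, 4 fell and 4 did not pass (median log2 -0.17). Their summed levels were 36919 and 47947 scaled counts in the controls against 48490 and 54723 in MYC-PyMT. Most of each sum came from Apoe, which did not pass (17431 and 28943 against 22660 and 28345), and Lyz2 (12560 and 10767 against 19195 and 19692). Adgre1, which encodes F4/80, stood at 1343 and 1133 against 896 and 835 (limma adjusted p = 0.0580), and Csf1r, the receptor for the macrophage growth factor CSF1, fell from 1075 and 1537 to 904 and 758 (limma adjusted p = 0.0449). Among the others, Mertk and Fcgr1 fell (log2 -1.05 and -0.76), while Cd68, Trem2, Lyz2 and Marco rose (log2 1.38, 1.47, 0.74 and 4.13). The part of these cells in the C1q values was not tested.

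The lectin pathway was represented by Masp1, a protease that cuts C2 and other targets. It had 27.1 and 28.9 scaled counts in the controls against 5.03 and 7.69 in MYC-PyMT, so both MYC-PyMT libraries were low and the groups did not overlap. The log2 change came to -2.0 (SE 0.47, limma adjusted p = 0.00660). The call ended without Control-PyMT replicate 2 (log2 -1.96, limma adjusted p = 0.0506) and by DESeq2 on the recovered reads (adjusted p = 0.0678).

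Of the 4 convertase components, which build the enzymes that cleave C3 and C5, C4b rose, Cfb fell, and C2 and C3 did not pass. C4b had 1688 and 3176 scaled counts in the controls against 7584 and 7634 in MYC-PyMT. The MYC-PyMT libraries were close to each other and above both control libraries, which differed widely between themselves. The log2 change came to 1.72 (SE 0.27, limma adjusted p = 0.000719), and it ranged from 1.26 to 2.17 when each library was left out. C4b has a near-identical copy, C4a, at 20.6, 41.6, 25.2 and 35.2 scaled counts in the same order of libraries, and the counting could split reads between them, so both values are uncertain. C3, the component on which all routes meet, had 1410 and 1336 scaled counts in the controls against 1161 and 1303 in MYC-PyMT (log2 -0.16, limma adjusted p = 0.519). Per kilobase, C4b was 1.08 and 2.15 times C3 in the controls and 5.90 and 5.29 times C3 in MYC-PyMT.

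Cfb, factor B of the alternative route, fell from 112 and 127 scaled counts to 65.4 and 62.6, without overlap (log2 -0.89, limma adjusted p = 0.0389). That call ended without any 1 of the 4 libraries (adjusted p = 0.0903 to 0.146) and by DESeq2 (0.0950). C2, the classical counterpart of factor B, had 72.0 and 79.8 scaled counts against 73.5 and 103 (log2 0.20, limma adjusted p = 0.649). C2 and Cfb share exonic bases on the same strand with the read-through gene model Gm20547, so their reads may be shared and their values are uncertain. Interferons are known to induce C2, C4 and factor B. Of 15 interferon response genes 14 fell (median log2 -2.68), with summed levels of 38159 and 33243 scaled counts in the controls against 5211 and 6515 in MYC-PyMT, and the relation of the 2 sets was not tested.

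Of the terminal components, which assemble the pore, C6 rose at a low level. It had 8.42 and 23.8 scaled counts in the controls (9 and 28 reads) and 70.5 and 45.1 in MYC-PyMT (70 and 41 reads). Both MYC-PyMT libraries were above both controls (log2 1.91, SE 0.52, limma adjusted p = 0.0134). The call ended without Control-PyMT replicate 1, the lowest library (log2 1.21, limma adjusted p = 0.116), and the change was 2.61 without Control-PyMT replicate 2. C7 did not reach the level filter, with 1 and 7 reads in the controls and none in either MYC-PyMT library, which allows up to 3 reads in each.

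Among regulators, which protect host cells or stabilise the convertase, the largest fall of any complement member was in Cd55, the decay-accelerating factor that dissolves convertases on the cell surface. Cd55 (chromosome 1, 130439027 to 130462744, GRCm38) had 3271 and 2988 scaled counts in the controls against 228 and 271 in MYC-PyMT, a 12.5-fold lower mean. The libraries of each group lay close together and the groups were far apart (log2 -3.65, SE 0.21, limma adjusted p = 3.85e-06, and -3.77 to -3.52 with each library left out). Cd59a, an inhibitor of the pore, fell from 1477 and 1592 to 649 and 1115 (log2 -0.85, limma adjusted p = 0.0220), with MYC-PyMT replicate 2 near the controls. The Cd59a call ended without Control-PyMT replicate 1 (adjusted p = 0.145), without Control-PyMT replicate 2 (0.185), without MYC-PyMT replicate 1 (log2 -0.46, adjusted p = 0.273) and without the variance trend (0.0783). Its paralog Cd59b, of another list, fell from 42.1 and 39.9 to 4.03 and 8.79 scaled counts (log2 -2.58, limma adjusted p = 0.00207).

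The other regulators did not pass. Cr1l, called Crry, the broad rodent inhibitor of C3 and C4 convertases on cell surfaces, had 2533 and 2112 scaled counts against 2567 and 2422 (log2 0.11, limma adjusted p = 0.659). Cfi, the protease that inactivates C3b and C4b, had 28.1 and 28.9 against 21.1 and 10.99 (log2 -0.85, limma adjusted p = 0.155). Cfp, properdin, which stabilises the alternative convertase and is made by myeloid cells, had 277 and 374 against 269 and 368 (log2 -0.03, limma adjusted p = 0.935). Per kilobase, Cd59a and Cd55 exceeded Cr1l in Control-PyMT, at 847, 645 and 225 scaled counts per kilobase, without overlap. In MYC-PyMT the order was Cd59a (487), Cr1l (241) and Cd55 (51.5). These orders depend on the lengths of all annotated exons joined, 1811 bases for Cd59a, 4853 for Cd55 and 10349 for Cr1l. Before division by length, Cr1l had more scaled counts than Cd59a in every library.

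Of the 2 anaphylatoxin receptor members, which draw and activate myeloid cells, C5ar1 rose and C3ar1 did not pass. C5ar1 rose from 101 and 92.6 scaled counts to 179 and 173 (log2 0.86, limma adjusted p = 0.0316), a call that ended without any 1 of the 4 libraries (adjusted p = 0.0788 to 0.141), with upper-quartile scaling (0.0520) and by DESeq2 (0.0510). C3ar1 had 737 and 696 against 841 and 912 (log2 0.29, limma adjusted p = 0.259). C5ar2, the second C5a receptor and no member of the list, fell from 248 and 362 to 37.2 and 34.1 (log2 -3.04, limma adjusted p = 8.42e-05). Of 10 neutrophil markers, which share C5ar1 with macrophages, 5 of 9 tested rose and none fell. Their summed levels were 3229 and 1074 scaled counts in the controls against 2871 and 4105 in MYC-PyMT, so the sums overlapped between groups, and their part in the C5ar1 value was not tested.

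**Figure D2:**
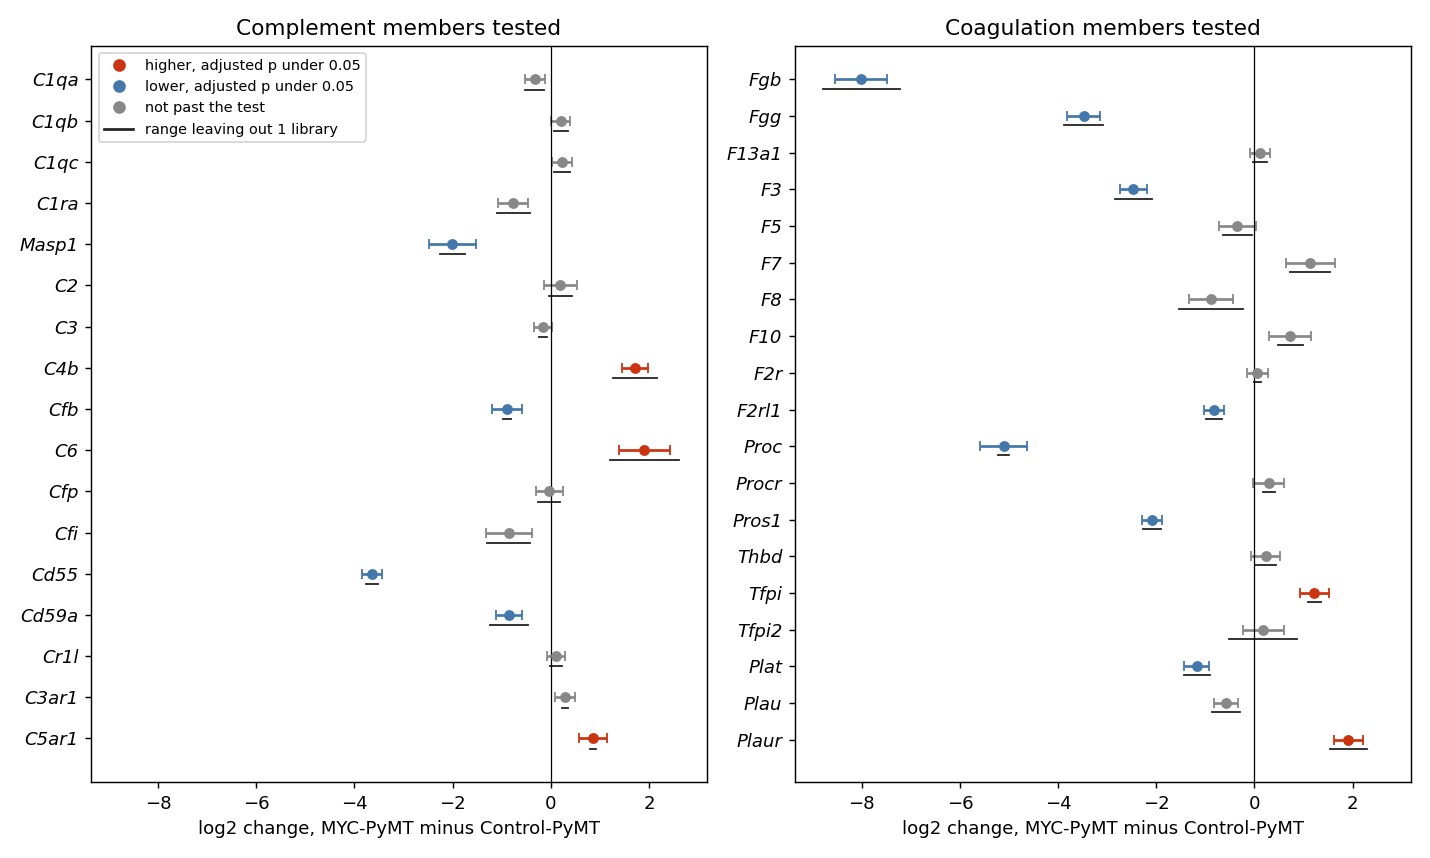
Log2 change of each tested member, MYC-PyMT minus Control-PyMT, on the scale of log2(scaled counts + 1), with its standard error, and below it, as a black line, the range when each library is left out. Fgb, Proc, Cd55 and Fgg show the largest falls, and Plaur, C6, C4b and Tfpi the largest rises.

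Fibrinogen is the soluble precursor of the clot, a hexamer of alpha, beta and gamma chains from neighbouring genes. The beta and gamma chain genes fell. Fgb (chromosome 3, 83040141 to 83049863) had 379 and 1117 scaled counts in the controls against 1.01 and 2.20 in MYC-PyMT, which is 1720 reads over both control libraries and 3 over both MYC-PyMT libraries. The ratio of means was 467-fold, with an exact 95% counting interval of 159.5 to 2266 that covers counting error only. With each library left out the log2 change of Fgb ranged from -8.79 (without Control-PyMT replicate 1) to -7.23 (without Control-PyMT replicate 2). Fgg (chromosome 3, 83007724 to 83015049) had 565 and 815 against 79.5 and 45.1, an 11.1-fold lower mean (log2 -3.48, SE 0.34, limma adjusted p = 5.26e-05). The control libraries were high for both genes and Control-PyMT replicate 2 was the higher, while no MYC-PyMT library came near them. For Fgb the log2 change came to -8.01 (SE 0.53, limma adjusted p = 8.86e-06). Per kilobase, Fgb was 0.368 and 0.753 times Fgg in the controls and 0.00695 and 0.0268 times in MYC-PyMT, where Fgb rests on 1 and 2 reads. F13a1, the transglutaminase chain that crosslinks fibrin and is also made by macrophages, did not pass, with 781 and 955 scaled counts against 941 and 933 (log2 0.12, limma adjusted p = 0.660).

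The promoters of both chains are shown because these members lie side by side in the genome, with Fga between them, and fell by different amounts. Sequences are from RefSeq (GRCm38.p6), 250 bases up to the base before the transcription start, 5′ to 3′ on the gene's strand, and capitals mark matches to the motifs listed next. The motifs, searched on both strands, were the MYC E-box CACGTG, AP-1 TGANTCA, STAT TTCNNNGAA, C/EBP TTGCNNAA, and the longer interferon element (ISRE) and HNF1 motifs, given by name alone, and no printed matches overlap. The Fgg window is chr3:83007474-83007723 on the plus strand and the Fgb window chr3:83049864-83050113 on the minus strand.
Fgg: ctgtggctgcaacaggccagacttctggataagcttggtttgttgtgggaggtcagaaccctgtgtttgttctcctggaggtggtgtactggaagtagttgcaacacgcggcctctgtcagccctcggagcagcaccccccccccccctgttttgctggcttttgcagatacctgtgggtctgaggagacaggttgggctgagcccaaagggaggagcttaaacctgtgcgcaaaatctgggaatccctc
Fgb: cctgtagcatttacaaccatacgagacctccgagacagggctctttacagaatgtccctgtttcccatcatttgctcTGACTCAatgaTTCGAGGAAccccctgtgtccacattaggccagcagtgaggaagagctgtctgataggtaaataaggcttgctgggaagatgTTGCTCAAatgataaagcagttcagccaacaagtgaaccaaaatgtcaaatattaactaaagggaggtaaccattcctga
The Fgb window holds an AP-1 match at -173, a STAT match at -162 and a C/EBP match at -80, counted from -1 at the base before the start. The Fgg window holds none of the motifs. Over 32851 RefSeq promoter windows of this length, 6.75% held the AP-1 letters, 7.02% STAT, 9.56% C/EBP, 6.02% the E-box, 2.98% ISRE and 0.371% HNF1. A promoter was given for 26 of the 37 measured members, in 30 windows. The shares above are per window, whereas members are counted by gene, and a gene with more windows has more chances to match. AP-1 letters were found in 7 of them (C3ar1, F2r, F3, Fgb, Plaur, Procr and Tfpi2), C/EBP in 4, STAT in 3, ISRE in 1, and the E-box and HNF1 letters in none. A match is a description of these letters and not a site.

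Hepatocytes are the main source of plasma fibrinogen. Albumin (Alb) stood at 0.94 and 7.64 scaled counts in the controls against 12.1 and 6.59 in MYC-PyMT, and Apoa1 had no read in the controls and 4.03 and 6.59 in MYC-PyMT. Of 12 hepatocyte markers 7 had a row, and their summed level was 78.6 and 187 scaled counts in the controls against 208 and 137 in MYC-PyMT. Of the 3 tested, Ahsg fell from 14.03 and 72.2 to 3.02 and 2.20, Apoh fell from 31.8 and 11.04 to 2.01 and 1.10, and Cyp2e1 rose from 13.1 and 84.1 to 171 and 111. Cyp2e1 made up most of the summed level in both MYC-PyMT libraries. Of 10 platelet and megakaryocyte markers 9 had a row and 3 were tested. Itga2b, the platelet integrin that binds fibrinogen, fell from 207 and 279 to 42.3 and 58.2 scaled counts (log2 -2.25, limma adjusted p = 0.000440), Pf4 was 65.5 to 103 and did not pass, and Ppbp and Gp9 were at 0 to 7.64. The part of hepatocytes and platelets in the fibrinogen values was not tested.

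Tissue factor, F3, is the membrane receptor that starts coagulation, and it was the most abundant coagulation member per kilobase in Control-PyMT. F3 (chromosome 3, 121723537 to 121735048) had 4973 and 7249 scaled counts in the controls against 831 and 1412 in MYC-PyMT. Both MYC-PyMT libraries lay far below both controls, a 5.45-fold lower mean (log2 -2.47, SE 0.28, limma adjusted p = 0.000108, and -2.85 to -2.09 with each library left out). F7, which tissue factor binds, and F10, its target, are neighbours on chromosome 8 with a gap of 1498 bases, and were low. F7 had 15.9 and 8.49 against 21.1 and 34.1 scaled counts (log2 1.14, limma adjusted p = 0.0835), and F10 had 23.4 and 16.1 against 28.2 and 38.5 (log2 0.73, limma adjusted p = 0.186). Both were higher in each MYC-PyMT library, and neither passed. The cofactor genes F5 and F8 did not pass. F5 had 55.2 and 50.1 against 33.2 and 50.6 (log2 -0.35, limma adjusted p = 0.470). F8 had 92.6 and 90.0 against 77.5 and 30.8 (log2 -0.89, limma adjusted p = 0.123), and without MYC-PyMT replicate 1 it passed as a fall (log2 -1.54, limma adjusted p = 0.00876).

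The F3 promoter window, chr3:121723287-121723536 on the plus strand, is shown because F3 heads the cascade, a choice made after its values were seen.
F3: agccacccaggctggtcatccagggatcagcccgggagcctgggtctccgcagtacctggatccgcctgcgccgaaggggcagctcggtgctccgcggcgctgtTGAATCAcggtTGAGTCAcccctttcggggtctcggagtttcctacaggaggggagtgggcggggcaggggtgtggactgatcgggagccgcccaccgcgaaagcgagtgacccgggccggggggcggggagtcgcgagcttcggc
It holds AP-1 matches at -146 and -135 and none of the other motifs.

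The genes that restrain coagulation did not move together. Tfpi, the inhibitor of the tissue factor complex, made mainly by endothelium, rose from 108 and 90.0 scaled counts to 212 and 254, without overlap (log2 1.22, SE 0.29, limma adjusted p = 0.00620). The Tfpi call ended without Control-PyMT replicate 2 (log2 1.09, limma adjusted p = 0.0613). Per kilobase, F3 was 99.1 and 174 times Tfpi in the controls and 8.46 and 12 times in MYC-PyMT. Tfpi2, a related inhibitor found in matrix, lay apart in the control libraries, with 268 and 101 scaled counts against 171 and 203 (log2 0.18, limma adjusted p = 0.750). Of 10 endothelial markers 5 rose and none fell, with summed levels of 3356 and 4393 scaled counts in the controls against 5644 and 7144 in MYC-PyMT, and their part in the Tfpi value was not tested.

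The genes of the protein C system split by component. Proc, protein C, the precursor of a protease that inactivates factors V and VIII, had 64.5 and 75.6 scaled counts in the controls and 1 read in each MYC-PyMT library (1.01 and 1.10 scaled counts). The ratio of means was 66.5-fold, with an exact 95% counting interval of 18.1 to 554, with a log2 change of -5.11 (SE 0.48, limma adjusted p = 4.52e-05). Pros1, protein S, the cofactor of protein C and a ligand of the receptors that clear dying cells, fell from 7190 and 6446 scaled counts to 1404 and 1820 (log2 -2.09, SE 0.20, limma adjusted p = 4.59e-05). Pros1 lies on chromosome 16, 62854307 to 62929346, and its change ranged from -2.28 to -1.90 with each library left out. Gas6, which shares those receptors and is no member of the list, also fell, from 7017 and 9642 to 2454 and 3208 scaled counts (log2 -1.55, limma adjusted p = 0.000403). The receptor side of the system did not pass. Thbd, thrombomodulin, had 130 and 177 against 171 and 185 (log2 0.23, limma adjusted p = 0.538), and Procr, the protein C receptor, had 82.3 and 75.6 against 88.6 and 106 (log2 0.29, limma adjusted p = 0.472).

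Of the receptors through which clotting proteases signal to cells, F2rl1, protease-activated receptor 2, fell from 1335 and 1281 scaled counts to 659 and 832 (log2 -0.82, limma adjusted p = 0.00908). It was no longer called without Control-PyMT replicate 1 (adjusted p = 0.0653), without Control-PyMT replicate 2 (0.0599) and without MYC-PyMT replicate 1 (0.109). F2r, the thrombin receptor and its neighbour on chromosome 13, had 567 and 619 against 645 and 592 (log2 0.06, limma adjusted p = 0.833), a difference whose sign turned under upper-quartile scaling. F2rl3, a further thrombin receptor and no member, rose from 5.61 and 9.34 to 28.2 and 28.6 scaled counts (log2 1.83, limma adjusted p = 0.0103).

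Of the 3 fibrinolysis members measured, Plaur rose, Plat fell and Plau did not pass. Plaur, the urokinase receptor, rose from 146 and 122 scaled counts to 390 and 656, with the MYC-PyMT libraries apart from each other and both above the controls (log2 1.91, SE 0.30, limma adjusted p = 0.000732, and 1.54 to 2.29 with each library left out). Plau, urokinase itself, had 692 and 617 against 359 and 530 (log2 -0.58, limma adjusted p = 0.0795). Plau passed as a fall with upper-quartile scaling (0.0458), with the length trend removed (0.0430) and without MYC-PyMT replicate 2 (0.0484). Plat, tissue plasminogen activator, fell from 686 and 828 to 277 and 403 (log2 -1.17, SE 0.25, limma adjusted p = 0.00415), and this call was lost once Control-PyMT replicate 2 was left out (log2 -1.03, limma adjusted p = 0.0804). Per kilobase, Plau was 5.24 and 5.57 times Plaur in the controls and 1.02 and 0.893 times in MYC-PyMT, where the genes stood at 188 and 200 scaled counts per kilobase and overlapped.

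The Plaur promoter window, chr7:24462233-24462482 on the plus strand, is shown as that of a member with one of the largest rises. C6 had the same rounded log2 change, 1.91, and lay above Plaur with a pseudocount of 0.5 (1.95 against 1.92) and with the length trend removed (1.91 against 1.84).
Plaur: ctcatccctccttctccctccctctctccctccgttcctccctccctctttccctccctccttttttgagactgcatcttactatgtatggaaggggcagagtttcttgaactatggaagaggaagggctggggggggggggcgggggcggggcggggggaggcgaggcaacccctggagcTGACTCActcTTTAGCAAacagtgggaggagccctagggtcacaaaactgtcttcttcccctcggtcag
It holds an AP-1 match at -69 and a C/EBP match at -59.

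**Figure D3:**
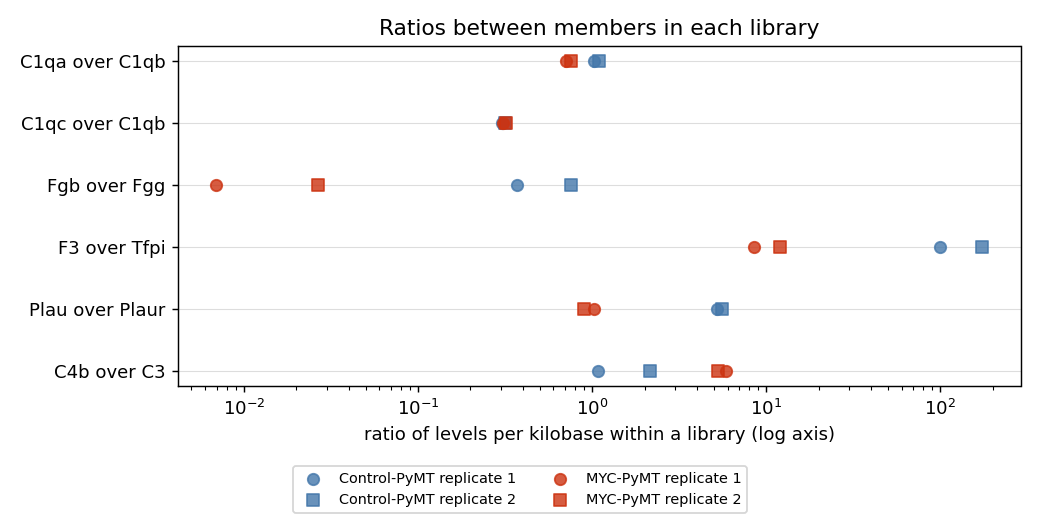
Ratio of the levels per kilobase of 6 pairs of members within each library (log axis), circles for replicate 1 and squares for replicate 2. The groups do not overlap for C1qa to C1qb, Fgb to Fgg, F3 to Tfpi, Plau to Plaur and C4b to C3, while C1qc to C1qb stays between 0.302 and 0.319.

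Genes of the same pathways outside the 43 were read from 2 further lists. Over all genes tested, 23.3% were called higher and 24.6% lower, and neither list was tested against those shares. Of 37 other complement genes 25 were tested, of which 4 rose, 9 fell and 12 did not pass (median log2 -0.42). Clu, clusterin, an inhibitor of the pore and a chaperone, fell from 20244 and 15358 scaled counts to 3288 and 3477 (log2 -2.38, limma adjusted p = 2.53e-05), and Itgax, a chain of complement receptor 4 on myeloid cells, fell from 716 and 674 to 150.0 and 175 (log2 -2.10, limma adjusted p = 0.000117). The rise with the smallest p was in C1qbp, named for binding C1q but working chiefly in mitochondria, from 3293 and 2705 to 13322 and 13586 scaled counts (log2 2.17, limma adjusted p = 2.88e-05). Vsig4, a complement receptor of resident macrophages, rose from 0.94 and 5.10 to 24.2 and 19.8 (log2 2.73, limma adjusted p = 0.00603), and C1s2, a C1s protease gene, from 6.55 and 5.95 to 42.3 and 20.9 (log2 2.09, limma adjusted p = 0.00754).

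Of 33 other coagulation genes 19 were tested, of which 4 rose, 8 fell and 7 did not pass (median log2 -0.35). Plaa, a ubiquitin-binding protein named for activating phospholipase A2 and no clotting factor, rose from 3575 and 2692 scaled counts to 5416 and 6555 (log2 0.94, limma adjusted p = 0.00447). A2m, a broad protease inhibitor, fell from 193 and 151 to 5.03 and 17.6 (log2 -4.02, limma adjusted p = 0.000240), and Vwf, the carrier of factor VIII made by endothelium and megakaryocytes, from 247 and 400.1 to 61.4 and 62.6 (log2 -2.32, limma adjusted p = 0.000335).

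Of 8 basal epithelial markers, the layer that contains myoepithelium, 5 fell, 1 rose and 2 did not pass, with summed levels of 42012 and 40407 scaled counts in the controls against 11464 and 25331 in MYC-PyMT. Within that list Krt5 did not pass (log2 0.53, limma adjusted p = 0.169) and Krt14 rose (log2 1.24, limma adjusted p = 0.0369), while Trp63, Acta2, Oxtr, Myh11 and Mme fell (log2 -2.73, -3.16, -4.50, -5.38 and -5.81). Of 10 luminal markers 6 fell and none rose, summing to 137315 and 128667 against 102953 and 101349. Krt8 and Epcam did not pass, while Cdh1, Esr1, Pgr, Foxa1, Kit and Prlr fell (log2 -7.88 to -0.62). Krt18 did not pass (log2 -0.37, limma adjusted p = 0.200). Elf5 did not pass either, though it was higher in both MYC-PyMT libraries (log2 0.465, limma adjusted p = 0.0660). Markers named beyond the leading pair of a list were chosen after their values were seen. Of 10 fibroblast markers 2 rose and 2 fell, summing to 22971 and 32702 against 22944 and 33484. Of 10 T and NK cell markers 8 were tested, 7 fell and 1 rose, summing to 470 and 564 against 173 and 170. The 1 that rose, Cd4 (45.8 and 39.9 against 130 and 141), made up most of both MYC-PyMT sums. Adipocyte markers, which mark the cells that make factor D, summed to 1169 and 3084 in the controls against 4375 and 3694 in MYC-PyMT, with 1 of 8 higher and 1 lower. Fabp4 made up most of the MYC-PyMT sums, with 451 and 1201 in the controls against 2939 and 2544 in MYC-PyMT. Platelet and megakaryocyte markers summed to 300.2 and 436 against 158 and 179, with 1 of 3 tested lower. That marker, Itga2b, made up most of the control sums. What part these cells had in the falls of F3, Pros1, Cd55, Proc and the fibrinogen chains was not tested.

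**Figure D4:**
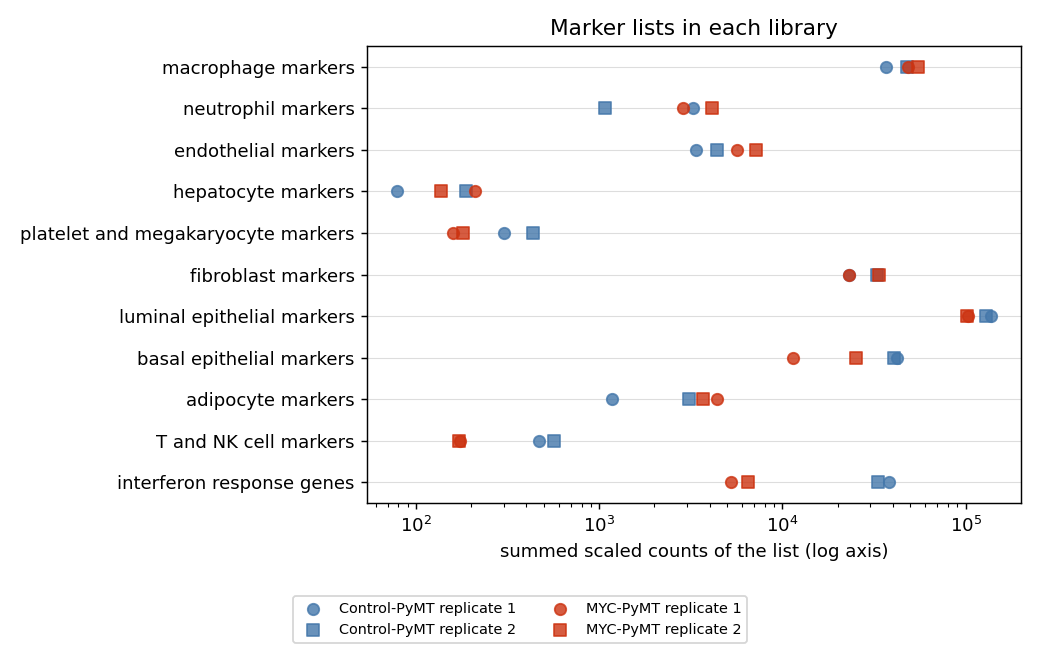
Summed scaled counts (log axis) of 10 cell type marker lists and of the interferon response genes in each library, circles for replicate 1 and squares for replicate 2. Interferon response, T and NK cell, basal, luminal and platelet sums are lower in both MYC-PyMT libraries. Endothelial, adipocyte and macrophage sums are higher in both, and neutrophil, hepatocyte and fibroblast sums overlap. Sums weigh abundant genes most, such as Apoe and Lyz2 (macrophage) and, in Control-PyMT, Itga2b (platelet). In MYC-PyMT such genes were Fabp4 (adipocyte), Cyp2e1 (hepatocyte) and Cd4 (T and NK cell).

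Ordered by level per kilobase, C1qa (4828) and C1qb (4555) led in Control-PyMT and overlapped, followed by F3 (2418), Pros1 (1668) and C1qc (1414), whose neighbours in that order did not overlap. In MYC-PyMT the order was C1qb (5273), C1qa (3873), C1qc (1657) and C4b (1336), again without overlap between neighbours, then Cd59a (487), F3 (444) and Pros1 (394), which overlapped. Lengths are of all annotated exons joined, so a gene with many isoforms is placed lower than its main transcript would be.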

How the data were processed

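HISAT2, DESeq2 and the mouse build mm10 (GRCm38.p5) are named per the submitters' processing notes. How reads were counted, with which strand setting and annotation, was not given in the sources used here. The authors deposited scaled counts (a non-negative signal) for 20555 genes. All values (100%) were whole multiples of a step per library within 0.001 reads, so the reads were recovered. Members and lists were chosen with earlier results of these data known. limma 3.58.1 (lmFit and eBayes with a variance trend, R 4.3.3) was fitted to log2(value + 1) over 16725 genes with at least 10 scaled counts in at least 2 libraries, two-sided, adjusted by Benjamini-Hochberg and called under 0.05. A fold change on that scale understates the change of low genes. GENCODE mouse release 21 gave coordinates and exonic lengths for 20463 gene IDs. edgeR 4.0.16 and DESeq2 1.42.0 were run on the recovered reads. Every member is named, in the order of its role. From the other pathway lists the genes with the smallest p in each direction were taken. Cd59b and C4a were named besides, as close relatives of members. Of the pathway and marker genes, 2 are not reported here. The fit was tested on simulated data with a set dispersion of 0.02. It called 12% of 1.5-fold changes, 76% of 2-fold changes and 100% of 4-fold and 8-fold changes. A member that did not pass may therefore still have changed, and 2-fold is no upper bound. F7 did not pass at a log2 change of 1.14. Alternatives were other pseudocounts, filters, scalings, tools and thresholds, the replicate block, removal of the transcript length trend, and leaving out each library with the genes tested kept. RNA integrity numbers of 3.3 to 9.6 are not tied to libraries in the labels.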

Additional observations from a re-analysis of the deposited data

How the results depend on the processing

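Of 16 called members, 8 kept direction and call in every alternative that tested them: C4b, Cd55, F3, Fgb, Fgg, Plaur, Proc and Pros1. The other calls (C5ar1, C6, Cd59a, Cfb, F2rl1, Masp1, Plat and Tfpi) ended in at least 1 alternative, and no called member turned its direction. Of 571 recomputed member values 528 kept direction and side of the threshold, 23 lost it, 10 gained it and 10 turned sign. Leaving out each library gave 5236 to 6480 changed genes against 8010, with 1 to 2 complement members higher (against 3), 1 to 3 lower (against 4), 1 to 2 coagulation members higher (against 2) and 5 to 8 lower (against 7). By DESeq2, 2 complement members were lower, and 7293 genes changed. Sign turned only in members that had not passed. C1qb stood at -0.13 with the length trend removed and F2r at -0.0431 with upper-quartile scaling. Leaving out each library gave -0.045 to 0.441 for C2, -0.259 to 0.19 for Cfp (0.18 without Control-PyMT replicate 2), -0.0229 to 0.239 for Cr1l, -0.027 to 0.263 for F13a1, -0.00243 to 0.125 for F2r (-0.000119 without MYC-PyMT replicate 1) and -0.52 to 0.877 for Tfpi2. Fewer libraries are fitted in the leave-one-out values; for the others the cause was not tested. With the replicate block 8039 genes changed, 5 complement members were lower and no other count of members moved. Replicate 1 minus replicate 2 correlated between groups at -0.089 over genes, so the numbers were not treated as pairs. Upper-quartile scaling moved the median change of all genes from -0.02 to -0.12. Members near 10 scaled counts (C6, C7, F7, F10, Masp1) are limited by depth.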
